A study of Rattus norvegicus with 11 samples.

Results

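The respiratory chain genes were the rows of the deposited gene table whose name starts with Nduf, Uqcr, Atp5 or Cox4 to Cox8, or is Sdha, Sdhb, Sdhc, Sdhd or Cycs, together with the protein-coding rows of the mitochondrial chromosome. By this rule 112 of 32623 genes were members, 99 of them nuclear and 13 mitochondrial. The nuclear members fell into 38 genes of complex I, 4 of complex II, 9 of complex III, 22 of complex IV and 17 of complex V, with 8 assembly factors of complex I (Ndufaf genes) and Cycs apart. The mitochondrial members were 7 genes of complex I, 1 of complex III, 3 of complex IV and 2 of complex V.

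Complexes I to IV sit in the inner mitochondrial membrane and pass electrons from NADH and succinate to oxygen, and all of them except complex II pump protons while doing so. Complex V, the ATP synthase, lets the protons flow back and makes ATP. All subunits of complex II are made from nuclear genes, whereas complexes I, III, IV and V mix nuclear subunits with a small number that are read from the circular mitochondrial genome as long shared transcripts. Resting lymphocytes draw much of their ATP from this chain, and neutrophils are known for relying mainly on glycolysis.

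RNA was sequenced from peripheral white blood cells (WBCs) of male Wistar rats, 7 weeks old, without any genetic change. Collagen-induced arthritis (CIA) was raised in 4 rats with type II collagen emulsified in incomplete Freund's adjuvant and boosted on day 7. Each of these rats gave 2 samples, a sample called Nampt++ at about day 8, when Nampt (the enzyme that starts NAD salvage from nicotinamide) was found raised by PCR, and a sample called Nampt+ at about day 14, when Nampt was back at the baseline. The controls were 3 normal healthy rats. Red cells were lysed before extraction, the WBCs were not sorted, and status and day cannot be told apart.

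Several facts about the libraries bear on all of the values below. Total counts ranged from 65340027 to 85819418 per library, and haemoglobin genes took between 6.84% and 42.8% of them. The library of rat 2 at Nampt+ status held the highest haemoglobin share and stood apart from the other Nampt+ libraries, so results are also given without it. The level of Nampt itself did not follow the labels in every rat. It was 46.5, 10.1, 36.1 and 30.6 FPKM (fragments per kilobase of transcript, scaled to the depth of the library) at Nampt++ status in rats 1 to 4, and 11.4, 14.3, 27.5 and 36.9 FPKM at Nampt+ status, against 20.3, 32.9 and 13.5 FPKM in the controls. In rats 2 and 4 the library labelled Nampt+ thus held more Nampt than the library labelled Nampt++. The extraction protocol in the labels mentions retina although the source is given as leukocytes, and the leukocyte antigen Ptprc was at 122 to 280 FPKM. In unsorted blood, fewer cells of a type and less RNA per cell cannot be told apart. Each library is a separate sample, and p-values measure only the spread between these samples.

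Promoters are shown for the 3 members that passed an unadjusted p of 0.05 between the Nampt statuses, Ndufa2, Ndufb6 and Ndufb7, and for Atp5me, the marker of the gene set. The windows are the 250 bases before the start of each gene in RefSeq on the GRCr8 build, read 5′ to 3′ on the strand of the gene, at chr18:28631885-28632134 (minus strand) for Ndufa2, chr5:60206153-60206402 (minus strand) for Ndufb6, chr19:41477292-41477541 (minus strand) for Ndufb7 and chr14:1464610-1464859 (plus strand) for Atp5me. Capitals mark matches, on either strand, to core motifs of 4 factors that are known to bind promoters of respiratory genes.
Ndufa2: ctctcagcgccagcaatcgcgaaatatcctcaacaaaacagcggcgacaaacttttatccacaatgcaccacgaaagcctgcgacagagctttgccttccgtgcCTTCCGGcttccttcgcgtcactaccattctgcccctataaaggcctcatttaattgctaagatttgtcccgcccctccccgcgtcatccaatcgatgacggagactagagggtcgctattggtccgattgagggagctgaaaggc
Ndufb6: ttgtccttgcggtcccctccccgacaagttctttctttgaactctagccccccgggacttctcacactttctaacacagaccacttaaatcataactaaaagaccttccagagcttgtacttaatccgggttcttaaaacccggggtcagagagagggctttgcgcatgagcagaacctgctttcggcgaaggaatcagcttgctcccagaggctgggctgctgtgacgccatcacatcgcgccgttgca
Ndufb7: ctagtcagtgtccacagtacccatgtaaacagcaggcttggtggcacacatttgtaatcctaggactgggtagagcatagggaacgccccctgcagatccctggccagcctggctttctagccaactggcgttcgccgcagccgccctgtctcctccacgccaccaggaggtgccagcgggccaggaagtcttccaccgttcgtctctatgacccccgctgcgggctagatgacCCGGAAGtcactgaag
Atp5me: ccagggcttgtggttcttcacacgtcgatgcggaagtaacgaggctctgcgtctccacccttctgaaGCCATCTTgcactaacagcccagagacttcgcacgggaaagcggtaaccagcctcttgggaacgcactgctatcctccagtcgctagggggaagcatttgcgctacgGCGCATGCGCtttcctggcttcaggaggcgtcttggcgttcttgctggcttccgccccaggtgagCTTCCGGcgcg

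The motifs searched were GCGCATGC for NRF1, CCGGAAG for ETS factors such as GABP, AAGATGGC for YY1 and GGGCGGGG for SP1, and matches to different motifs did not overlap in the printed windows. The Atp5me promoter held a YY1 match at bases -183 to -176, an NRF1 match read on both strands at -76 to -67 and an ETS match at -11 to -5. Ndufa2 held an ETS match at -146 to -140 and Ndufb7 one at -16 to -10, and the Ndufb6 window held none. Of the 95 nuclear symbols, 82 matched RefSeq by name and 1 by a synonym, which gave 83 windows of 250 bases before and 50 bases after the start. Beyond the printed bases, the longer window of Ndufa2 also held a YY1 match, at bases 27 to 34 after the start. In these windows the NRF1 motif was present in 14.5% (12 of 83, against 2.66% of 27457 promoters of all genes), the ETS motif in 26.5% (22, against 9.22%) and the YY1 motif in 20.5% (17, against 3.44%), whereas the SP1 motif was present in 9.64% (8, against 16.3%). These shares describe letters in the windows and not binding.

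Most members were well expressed in WBCs. Of the 99 nuclear members, 87 had a mean of at least 1 FPKM over the 11 libraries, 76 of at least 10 and 19 of at least 100. The median of these 87 means was 41.4 FPKM, and it was 8.10 FPKM over all 11242 genes with a mean of at least 1 FPKM. The other 12 nuclear members were below 1 FPKM, and 5 of them (Cox8b, Cox8c, Cox7b2, Ndufa4l2 and Cox6c-ps1) were listed at 0 in all libraries.

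The complexes differed in level. Nuclear members with a mean of at least 1 FPKM had a median of 149.9 FPKM in complex IV, 71.6 FPKM in complex V, 41.2 FPKM in complex II, 37.9 FPKM in complex I and 35.4 FPKM in complex III, and assembly factors of complex I had 5.46 FPKM. Cox4i1, a subunit that joins cytochrome c oxidase early in its assembly, was the highest of all nuclear members with a mean of 434 FPKM. In the other complexes the highest means were those of Ndufa1, an accessory subunit of complex I (116 FPKM), Sdhd, a membrane anchor of succinate dehydrogenase (48.7 FPKM), Uqcrh, the hinge subunit of complex III (266 FPKM), and Atp5f1e, the epsilon subunit of the ATP synthase (313 FPKM). The lowest mean of complex II was 30.4 FPKM for Sdha, which carries the flavin of the enzyme, so the 4 subunits lay within a narrow range. The lowest mean of complex V was 6.33 FPKM for Atp5md, and Ndufaf8 (19.3 FPKM) and Ndufaf2 (0.50 FPKM) bounded the assembly factors.

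Some members rest on rows of uncertain identity. Uqcrb, Cox6b1, Ndufv3 and Ndufa10l1 each named 2 rows, between which reads may have been split, and the lowest mean of complex III, 9.04 FPKM, was that of the longer of the 2 Uqcrb rows, while the other, of 475 bases, had 35.0 FPKM. The row called Cycs, cytochrome c, spans 318 bases of chromosome 18 in the file's coordinates, and its mean was 10.8 FPKM. The row called Atp5md spans 308 bases of chromosome 10, and its mean was 6.33 FPKM. The lowest complex I member, a Ndufs6 row at 0.137 FPKM, is listed as a processed pseudogene. Such rows have the length of a processed copy, and reads of a parent gene and of a copy cannot be told apart here.

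The isoforms of complex IV were read almost entirely from 1 gene of each pair. Cox4i1 ranged from 302 to 565 FPKM over the libraries, and Cox4i2, the isoform known from lung, from 0 to 0.220 FPKM. Cox6a1 was at 239.5 to 335 FPKM, against 0 to 0.188 FPKM for the heart and skeletal muscle form Cox6a2. Cox8a was at 142 to 232 FPKM, and Cox8b and Cox8c were at 0. The same held for Cox7b, at 74.5 to 109 FPKM, against the testis form Cox7b2 at 0, and for Ndufa4, at 58.7 to 121 FPKM, against the hypoxia-responsive Ndufa4l2 at 0. The muscle form Cox7a1 was above 0 in only 1 library, the testis form Cox6b2 had a mean of 1.34 FPKM, and the 2 rows named Cox6b1 had means of 139.8 and 41.2 FPKM. The supercomplex factor Cox7a2l had a mean of 160.0 FPKM. The c ring of the ATP synthase, the rotor that the protons turn, can be built from 3 genes for an identical mature protein. Atp5mc2 was above Atp5mc3, and Atp5mc3 above Atp5mc1, in 11 of 11 libraries, with ratios of 2.91 to 3.98 and of 1.31 to 2.20.

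**Figure D1:**
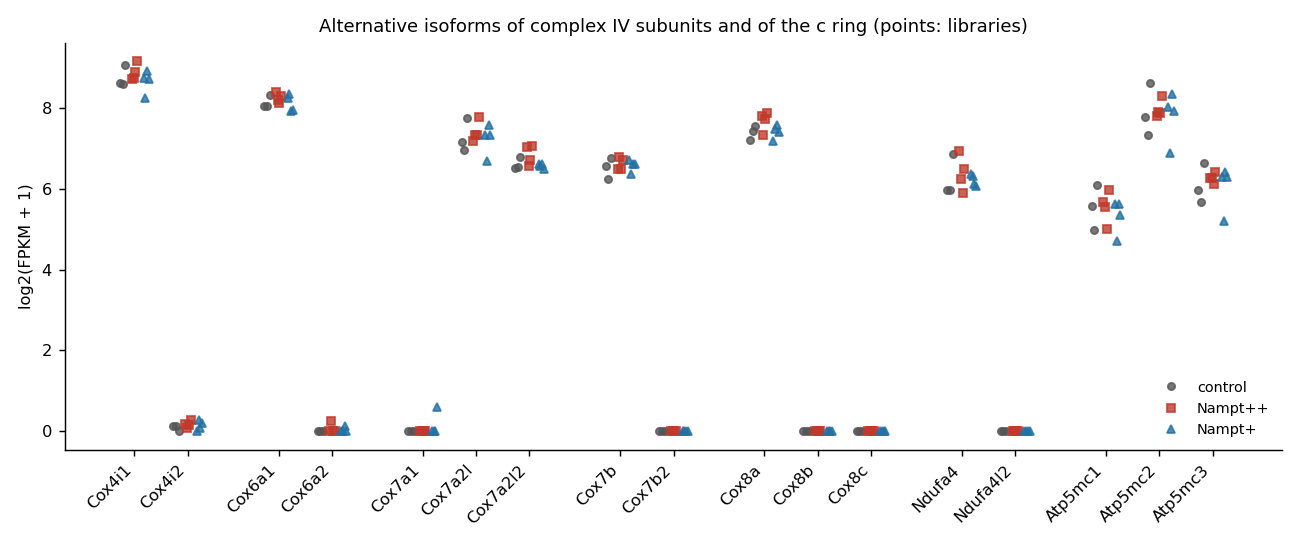
Level, as log2(FPKM + 1), of the alternative isoforms of complex IV subunits and of the 3 c ring genes, 1 point for each library in controls (circles), Nampt++ (squares) and Nampt+ (triangles). The ubiquitous forms lie far above the tissue forms in every library, and Atp5mc2 lies above Atp5mc3 and Atp5mc1.

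The 13 mitochondrial members were more abundant per length than most nuclear ones. Their means ran from 263 FPKM for Mt-nd6 to 9897 FPKM for Mt-co1. Complex IV led with Mt-co1 (9897 FPKM), Mt-co3 (8966 FPKM) and Mt-co2 (5049 FPKM), the subunits that form its catalytic core. Mt-atp8 (4097 FPKM) and Mt-atp6 (2010 FPKM), both of the membrane part of the ATP synthase, and Mt-cyb (2987 FPKM), cytochrome b of complex III, were also above most complex I subunits. The 7 complex I subunits stood at 2773 FPKM for Mt-nd1, 2137 FPKM for Mt-nd2, 1391 FPKM for Mt-nd3, 1065 FPKM for Mt-nd4, 764 FPKM for Mt-nd4l, 304 FPKM for Mt-nd5 and 263 FPKM for Mt-nd6, the only member on the other strand. The order by counts per kilobase was the same as by FPKM. Between neighbours in this order, Mt-co1 was above Mt-co3 in 9 of 11 libraries, Mt-cyb above Mt-nd1 in 9, Mt-nd2 above Mt-atp6 in 8, Mt-nd3 above Mt-nd4 in 9 and Mt-nd5 above Mt-nd6 in 9, and the other 7 neighbours kept their order in all 11. Mt-atp8 and Mt-atp6 share 43 bases, Mt-nd4l and Mt-nd4 share 7 and Mt-nd5 and Mt-nd6 share 23 on opposite strands, so reads there may be assigned to either gene. Poly(A) selection was used, and mitochondrial transcripts carry tails of their own kind, so these levels are not those of all mitochondrial RNA.

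**Figure D2:**
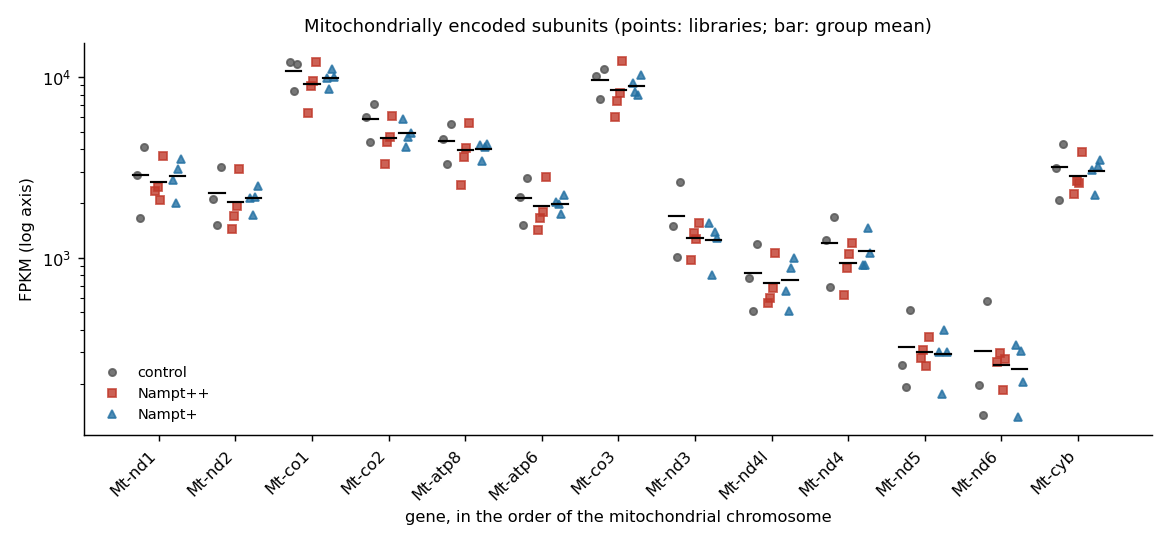
FPKM, on a log axis, of the 13 mitochondrially encoded subunits in the order of the mitochondrial chromosome, 1 point for each library and a bar for each group mean. Mt-co1, Mt-co3 and Mt-co2 are the highest and Mt-nd5 and Mt-nd6 the lowest, and the 3 groups overlap for every gene.

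The 13 mitochondrial members took between 2.76% and 5.39% of the counts of a library, and the nuclear members between 0.350% and 0.638%. The ratio of mitochondrial to nuclear counts was lowest in the Nampt++ library of rat 1, at 4.99, and reached 10.1 in a control. Within each library, the mean log2(FPKM + 1) of the mitochondrial members exceeded that of the nuclear members by 5.64 ± 0.23 (SD, n = 3) in controls, 5.32 ± 0.30 (SD, n = 4) at Nampt++ status and 5.603 ± 0.07 (SD, n = 4) at Nampt+ status. Library by library the gap was 5.72, 5.38 and 5.82 in controls, 4.90, 5.39, 5.37 and 5.61 at Nampt++ status and 5.53, 5.71, 5.59 and 5.59 at Nampt+ status. The groups overlapped, and the Nampt++ library of rat 1 was the lowest of the 11.

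The nuclear members as a group were highest at Nampt++ status, by small differences. The mean of log2(FPKM + 1) over 87 nuclear members was 5.35 ± 0.33 (SD, n = 3) in controls, 5.49 ± 0.14 (SD, n = 4) at Nampt++ status and 5.27 ± 0.31 (SD, n = 4) at Nampt+ status, with overlapping ranges. From Nampt++ to Nampt+ it differed within rats 1 to 4 by -0.13, -0.56, 0.06 and -0.24. Rat 2 gave most of this difference on the FPKM scale, where its Nampt+ library (4.81) lay below the others (5.42 to 5.44). On the scale of CPM (library-scaled counts) after TMM normalization, written TMM CPM, the same library was the highest of the Nampt+ libraries, at 5.28 against 4.95 to 5.09, and the within-rat differences were -0.10, -0.01, -0.21 and -0.21. On this scale the means were 5.09 ± 0.06 in controls, 5.21 ± 0.06 at Nampt++ status and 5.07 ± 0.15 at Nampt+ status, and all 4 Nampt++ libraries (5.16 to 5.29) lay above all 3 controls (5.03 to 5.14).

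The complexes followed each other. By log2(FPKM + 1), nuclear complex I members averaged 5.04, 5.17 and 4.92 in controls, Nampt++ and Nampt+, complex II members 5.27, 5.45 and 5.23, complex III members 5.42, 5.57 and 5.36, complex IV members 6.61, 6.80 and 6.57, and complex V members 6.19, 6.34 and 6.15. The order of these group means was the same in all 5 complexes, and the ranges of the groups overlapped in each of them. The place of Nampt+ below controls rested on rat 2. The Nampt+ libraries of rats 1, 3 and 4 lay above the control mean in all 5 complexes, at 5.07 to 5.12 in complex I. By TMM CPM Nampt++ again had the highest mean in all 5. On that scale Nampt+ was slightly above controls in complexes II (5.74 against 5.72), IV (5.85 against 5.84) and V (6.05 against 6.04). Complex IV was lower at Nampt+ than at Nampt++ status in 4 of 4 rats by FPKM, whereas complexes I, II, III and V were lower in 3 of 4. By TMM CPM complexes I and II were lower in 4 rats, complexes III and IV in 3 and complex V in 2. The complex II mean by TMM CPM did not overlap between Nampt+ (5.70 to 5.80) and Nampt++ (5.81 to 5.95), nor between Nampt++ and controls (5.69 to 5.75). Nampt++ also lay above controls without overlap for complex I (4.78 to 4.92 against 4.68 to 4.76) and the assembly factors (2.99 to 3.08 against 2.88 to 2.94). Complexes III, IV and V overlapped between Nampt++ and controls.

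The group mean of the mitochondrial members was lowest at Nampt++ status on both scales, an order that rested largely on the Nampt++ library of rat 1. Their mean of log2(FPKM + 1) was 10.98 ± 0.54 in controls, 10.81 ± 0.34 at Nampt++ status and 10.88 ± 0.24 at Nampt+ status, and from Nampt++ to Nampt+ it differed within rats 1 to 4 by 0.49, -0.25, 0.28 and -0.26. By TMM CPM these differences were 0.53, 0.35, -0.02 and -0.24, so that rats 2 and 3 changed sign with the scale. By TMM CPM the group means were 10.59 ± 0.19 in controls, 10.38 ± 0.31 at Nampt++ status and 10.54 ± 0.25 at Nampt+ status, with overlapping ranges, and no direction was shared by the 4 rats. The Nampt++ library of rat 1 stood at 10.46 by log2(FPKM + 1), against 10.75 to 11.27 in the others of that status. By TMM CPM it stood at 9.95, against 10.40 to 10.64.

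**Figure D3:**
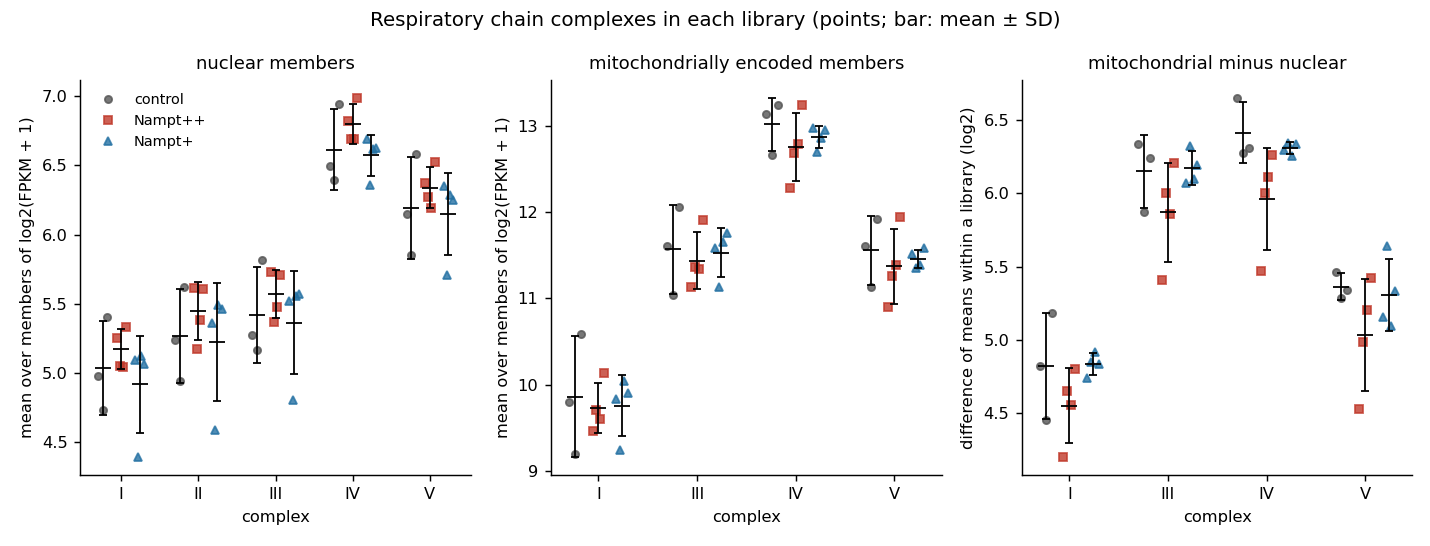
Mean over members of log2(FPKM + 1) by complex for nuclear members (left) and mitochondrial members (middle), and the mitochondrial minus the nuclear mean within each library (right), 1 point for each library with the group mean ± SD. Nuclear means are highest at Nampt++ status in each complex with overlap between groups, and the Nampt+ library of rat 2 lies below the other Nampt+ libraries in each complex.

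Nampt+ and Nampt++ were then compared gene by gene with edgeR's quasi-likelihood test, over 11219 genes that averaged at least 1 FPKM in these samples. The thresholds of the study, a mean FPKM more than 2 times higher or less than 0.5 times as high with an unadjusted p below 0.05, set which genes count as called. Of the 88 nuclear and 13 mitochondrial members tested, 0 were called, against 0.642% of all genes tested. At an unadjusted p under 0.05, 3 members were lower at Nampt+ status (all genes: 0.936%) and 0 were higher (all genes: 1.35%). After Benjamini-Hochberg adjustment over all genes, edgeR passed 0 members and 0 genes at 0.05, with a smallest adjusted p of 0.9996 among members. DESeq2 passed 5 genes and 0 members at an adjusted p of 0.05. It gave 6 members an unadjusted p under 0.05, all lower at Nampt+ status (all genes by DESeq2: 1.54% lower and 1.78% higher).

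The fitted log2 fold changes of nuclear members lay mostly just below 0. In this comparison 73 of 88 nuclear members were below 0, against 50.0% of all genes, with a median of -0.12 for the members and 0.00 for all genes. The medians were -0.15 in complex I, -0.14 in complex II, -0.12 in complex III, -0.12 in complex IV, -0.10 in complex V and -0.08 for the assembly factors. Within complex I the 31 accessory subunits (29 tested) had a median of -0.18, and the 7 core subunits, which carry out catalysis, one of -0.09. The mitochondrial members lay on the other side, with 1 of 13 below 0 and a median of 0.19. On the FPKM scale itself (limma on log2(FPKM + 1)) 92.0% of nuclear members were below 0, but so were 62.4% of all genes. Without the Nampt+ library of rat 2 the nuclear median was -0.19 and the mitochondrial median 0.01, with 6 of 13 below 0. Without the Nampt++ library of rat 1 the mitochondrial median was 0.05, and the highest with a library left out was 0.26, without the Nampt++ library of rat 4.

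**Figure D4:**
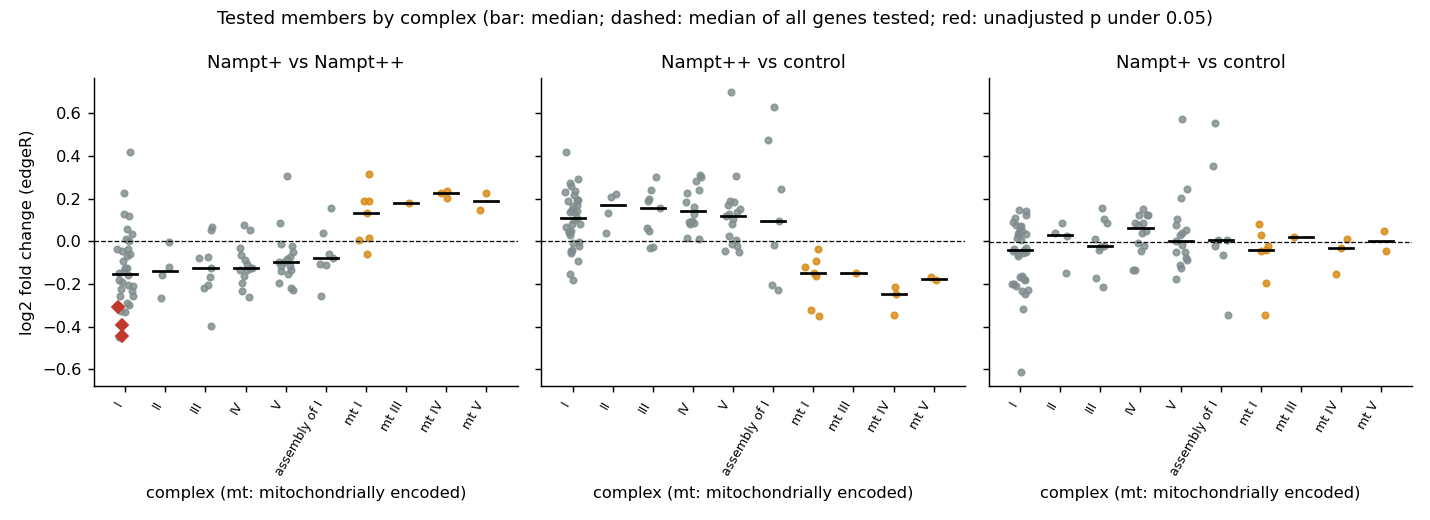
Log2 fold change by edgeR of each tested member, by complex, in the 3 comparisons, with a bar for the median of each complex and a dashed line for the median of all genes tested. Nuclear medians lie below 0 for Nampt+ against Nampt++ and above 0 for Nampt++ against controls, mitochondrial medians lie on the opposite side in both, and 3 complex I members in the left panel have an unadjusted p under 0.05.

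Ndufa2, Ndufb6 and Ndufb7, accessory subunits of complex I, were the 3 members past an unadjusted p of 0.05. Ndufa2 was at 49.8, 43.0, 46.4 and 58.6 FPKM at Nampt++ status in rats 1 to 4 and at 41.7, 21.8, 43.2 and 38.6 FPKM at Nampt+ status, with 35.5, 39.3 and 51.4 FPKM in controls. It was lower at Nampt+ status in every rat, with the top Nampt+ value just above the lowest Nampt++ value. By TMM CPM the groups did not overlap, at 26.6 to 28.9 at Nampt++ status and 19.3 to 22.9 at Nampt+ status. The log2 fold change was -0.39 (SE 0.12, unadjusted p = 0.0104 and adjusted p = 0.9996 by edgeR's quasi-likelihood test).

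Ndufb6, a subunit of the membrane arm whose promoter window above held no match, was at 29.9, 26.7, 28.4 and 33.4 FPKM at Nampt++ status and at 26.3, 11.4, 26.5 and 21.2 FPKM at Nampt+ status, with 21.6, 19.9 and 30.2 FPKM in controls. It was the only member whose FPKM ranges did not overlap between the statuses, against 0.321% of all genes that were lower in this way, and 0 members were higher in this way, against 0.0891%. Its log2 fold change was -0.44 (SE 0.15, unadjusted p = 0.0145 and adjusted p = 0.9996 by edgeR). Ndufb7, a membrane arm subunit on the intermembrane side, was at 47.7, 33.9, 41.9 and 48.2 FPKM at Nampt++ status and at 37.4, 20.5, 37.9 and 37.4 FPKM at Nampt+ status, with 31.0, 38.5 and 42.4 FPKM in controls. Its FPKM ranges overlapped while its TMM CPM ranges, 22.2 to 25.2 and 18.3 to 20.4, did not. The log2 fold change of Ndufb7 was -0.31 (unadjusted p = 0.0351 and adjusted p = 0.9996 by edgeR). These fits do not pair the samples of a rat. With the rat as a block 2 members passed an unadjusted p of 0.05, Ndufa2 and Ndufb6, and Ndufb7 did not. Both were lower at Nampt+ status, and in that fit 0.526% of all genes were lower and 0.954% higher at that p.

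By TMM CPM, 8 nuclear members were lower at Nampt+ status with no overlap, against 0.909% of all genes, and 0 were higher, against 0.963%. Besides these 3 they were Ndufb5, Ndufc2, Sdhd, Uqcrc1 and Atp5f1e. Ndufb5 was at 19.4 to 21.1 against 22.1 to 27.2 CPM, Sdhd at 51.3 to 58.4 against 63.3 to 72.7 CPM and Uqcrc1, a core protein of complex III, at 68.9 to 80.1 against 85.2 to 91.9 CPM. Fitted log2 fold changes were -0.27 for Sdhd (unadjusted p = 0.0584 by edgeR), -0.22 for Uqcrc1 (unadjusted p = 0.110 by edgeR) and -0.22 for Atp5f1e (unadjusted p = 0.138 by edgeR). These had the smallest p of complexes II, III and V, and in complex IV it was that of Cox5b, which binds zinc, at -0.23 (unadjusted p = 0.183 by edgeR).

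Counted within rats, 19 nuclear members had a lower FPKM at Nampt+ than at Nampt++ status in all 4 rats, against 4.94% of all genes, and 0 had a higher one, against 1.26%. They made up 21.6% of the 88 tested and comprised 11 of complex I, 4 of complex IV, 2 of complex V and 1 each of complexes II and III. This is a count of rows, and it holds both rows named Cox6b1, the Uqcrb row of 475 bases and the short Atp5md row. By TMM CPM 18 nuclear members were lower in all 4 rats, against 3.32% of all genes, and 0 were higher, against 4.45%. Of the 13 mitochondrial members, 0 were lower or higher in all 4 rats on either scale.

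Ndufa1, an X-linked accessory subunit of complex I, had the largest SD of log2(TMM CPM + 1) over the libraries among nuclear members with a mean of at least 10 FPKM. It was at 119, 140.3, 126 and 154 FPKM at Nampt++ status and at 27.2, 136, 55.4 and 93.8 FPKM at Nampt+ status, with 126, 166 and 133 FPKM in controls. Rats 1, 3 and 4 were low at Nampt+ status and rat 2 was not, so the spread was wide. The log2 fold change was -0.45 (SE 0.59, unadjusted p = 0.463 by edgeR) from the counts and -1.001 (unadjusted p = 0.0226 by limma) from log2(FPKM + 1). Without rat 2 at Nampt+ status it was -1.38 (unadjusted p = 0.00600 by edgeR) and past the study's thresholds. That fit gave 17 members an unadjusted p under 0.05, all of them lower at Nampt+ status, with 3.05% of all genes.

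**Figure D5:**
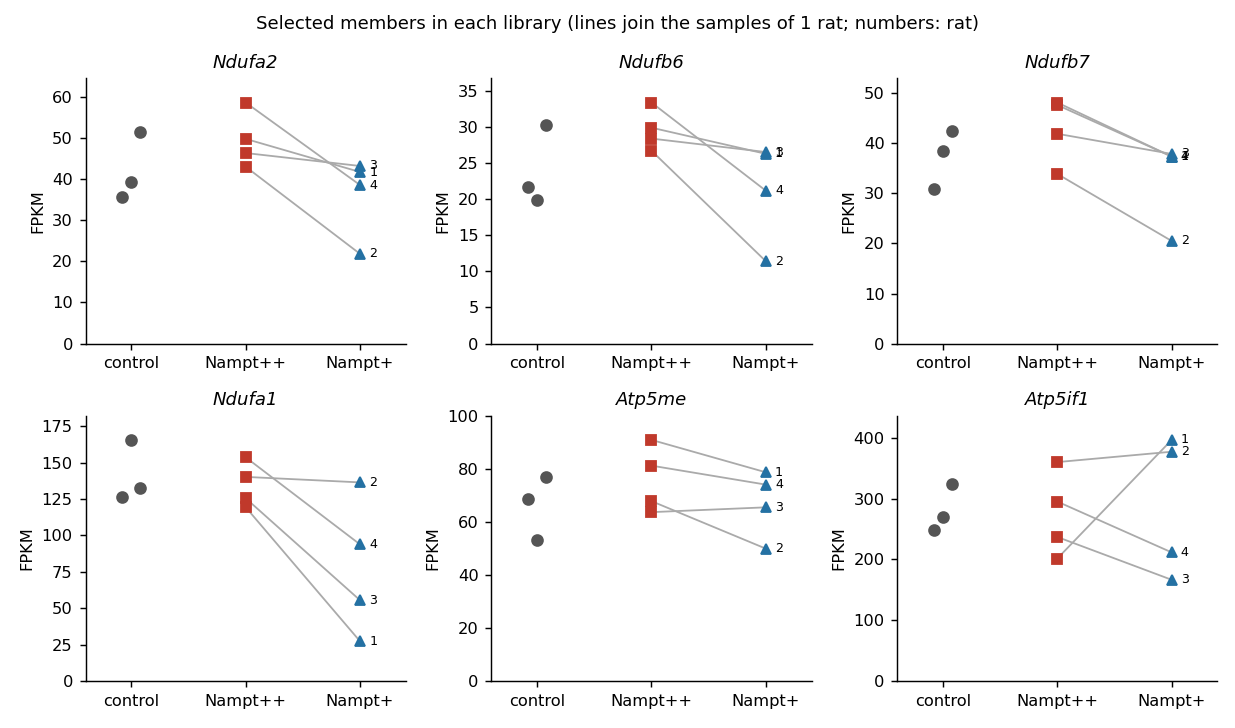
FPKM of Ndufa2, Ndufb6, Ndufb7, Ndufa1, Atp5me and Atp5if1 in each library by group, with lines that join the 2 samples of 1 rat and the rat's number beside the Nampt+ point. The first 3 genes are lower at Nampt+ status in each rat, Ndufa1 is low in rats 1, 3 and 4 only, and Atp5if1 is higher in rats 1 and 2 and lower in rats 3 and 4.

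The highest log2 fold change among nuclear members with a mean of at least 10 FPKM was that of Atp5if1, the inhibitor that blocks the reverse reaction of the ATP synthase. It was at 201, 360.0, 237 and 295 FPKM at Nampt++ status, at 397, 377, 166 and 211 FPKM at Nampt+ status and at 248, 269.9 and 324 FPKM in controls. It was higher at Nampt+ status in rats 1 and 2 and lower in rats 3 and 4, and its log2 fold change was 0.30 (SE 0.48, unadjusted p = 0.539 by edgeR). Atp5if1 is abundant in erythroid cells, and haemoglobin took 25.9%, 42.8%, 18.4% and 14.8% of the counts at Nampt+ status in rats 1 to 4 and 6.84%, 37.3%, 20.2% and 7.80% at Nampt++ status. Its part in the Atp5if1 values was not tested. The next highest log2 fold changes among nuclear members with a mean of at least 10 FPKM were those of the accessory subunits Ndufa12, 0.23 (SE 0.33), and Ndufc1, 0.12 (SE 0.25). Uqcr10, a small subunit of complex III, had -0.39 (SE 0.36, unadjusted p = 0.307 by edgeR), with 43.0 FPKM in the Nampt++ library of rat 1 and 10.4 to 29.8 FPKM in all others.

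Atp5me, the subunit e that helps to join ATP synthases into dimers, was at 90.9, 67.8, 63.7 and 81.2 FPKM at Nampt++ status, at 78.7, 49.9, 65.5 and 74.1 FPKM at Nampt+ status and at 68.8, 53.1 and 77.0 FPKM in controls. It was lower at Nampt+ status in rats 1, 2 and 4 and slightly higher in rat 3, and the 3 groups overlapped. The log2 fold change was -0.08 (SE 0.17, unadjusted p = 0.648 by edgeR). Among the mitochondrial members the log2 fold changes ran from -0.06 for Mt-nd6 to 0.31 for Mt-nd4 (SE 0.29, unadjusted p = 0.304 by edgeR).

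Against healthy controls, the Nampt++ libraries gave 0 members called (all genes: 0.686%) and 0 at an unadjusted p under 0.05 in either direction (all genes: 0.669% higher and 0.900% lower) by edgeR. DESeq2 also gave 0 members at an unadjusted p under 0.05. FPKM ranges without overlap were found for 0 members, against 0.633% of all genes that were higher and 0.463% that were lower. This comparison shares the Nampt++ libraries with the one above, so its values are no independent evidence. The median log2 fold change was 0.13 over 87 nuclear members, with 19 below 0 (all genes: 49.6%), and -0.17 over the 13 mitochondrial members, with 13 below 0. The nuclear medians were 0.11 in complex I, 0.17 in complex II, 0.16 in complex III, 0.14 in complex IV and 0.12 in complex V, and the 4 small membrane subunits of the ATP synthase had one of 0.25. Those 4 include the short row called Atp5md, whose identity is uncertain. Leaving out single libraries moved the mitochondrial median from -0.31, without the Nampt++ library of rat 4, to -0.04, without that of rat 1, where 11 of 13 were below 0.

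The named members of this comparison all missed the threshold. Cox6c, a small subunit of cytochrome c oxidase, was at 234, 175, 215 and 267 FPKM at Nampt++ status and at 158, 150.3 and 218 FPKM in controls, with a log2 fold change of 0.31 (SE 0.16, unadjusted p = 0.0804 by edgeR). Only control 3 reached into the Nampt++ range. Ndufb6 had 0.29 (SE 0.15, unadjusted p = 0.0969 by edgeR), Uqcrfs1, the Rieske iron-sulfur protein of complex III, 0.30 (SE 0.18, unadjusted p = 0.134 by edgeR) and Atp5mf, a membrane subunit of the ATP synthase, 0.31 (SE 0.19, unadjusted p = 0.151 by edgeR). Sdhb, the iron-sulfur subunit of complex II, had 0.22 (SE 0.15, unadjusted p = 0.169 by edgeR). Among nuclear members with a mean of at least 10 FPKM the highest values were those of Ndufaf7, a methyltransferase that helps complex I assembly, at 0.48 (SE 0.54), and Ndufa3 at 0.42 (SE 0.32). The lowest among the same nuclear members were those of Ndufa12 at -0.18 (SE 0.27), Ndufa1 at -0.16 (SE 0.27) and Cycs at -0.09 (SE 0.24).

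By TMM CPM, 7 nuclear members were higher at Nampt++ status than in controls with no overlap, against 1.21% of all genes, and 0 were lower, against 1.35%. They were Atp5po, Cox6c, Uqcrfs1, Ndufb6, Uqcrc1, Ndufv2 and Ndufaf8. Uqcrc1 was at 85.2 to 91.9 CPM against 73.9 to 79.1 CPM, and Atp5po, the stalk subunit that gives the ATP synthase its oligomycin sensitivity, at 54.1 to 63.5 CPM against 48.0 to 51.9 CPM. Mt-co2 was the 1 mitochondrial member without overlap, at 2165 to 3696 CPM at Nampt++ status and 3927 to 4295 CPM in controls. Mt-nd3 was the lowest of the mitochondrial fold changes, at -0.35 (unadjusted p = 0.224 by edgeR), and Mt-nd5 the highest, at -0.03.

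In the comparison of Nampt+ libraries with controls the fitted medians lay near 0. Of 11269 genes tested, 0.497% were called, and 0 of 87 nuclear and 13 mitochondrial members were. At an unadjusted p under 0.05, 0 members passed by edgeR in either direction (all genes: 0.355% higher and 0.515% lower), and 0 by DESeq2. The median log2 fold change was 0.00 over the nuclear members, with 43 of 87 below 0 (all genes: 50.7%), and -0.03 over the mitochondrial members, with 8 of 13 below 0. By limma on log2(FPKM + 1), 74.7% of nuclear members and 58.4% of all genes were below 0. FPKM ranges without overlap were found for 0 members, against 0.160% of all genes that were higher and 0.284% that were lower. No member had TMM CPM ranges apart, against 0.621% of all genes that were higher and 0.941% that were lower. Among nuclear members with a mean of at least 10 FPKM the lowest values were those of Ndufa1 at -0.61 (SE 0.69, unadjusted p = 0.401 by edgeR), Cycs at -0.25 (SE 0.24) and Ndufb4 at -0.25 (SE 0.17, unadjusted p = 0.195 by edgeR), and the highest those of Ndufaf7 at 0.35 (SE 0.60), Atp5if1 at 0.25 (SE 0.52) and Atp5mf at 0.20 (SE 0.31). Without rat 2 at Nampt+ status Ndufa1 stood at -1.55 and past the study's thresholds, the nuclear median was -0.12 and the mitochondrial median -0.22. With other single libraries left out the mitochondrial median reached 0.085, without control 3, so its sign depended on the libraries used.

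The rats whose Nampt values went against the labels were also left out together. With rats 2 and 4 removed from both statuses, which leaves 2 rats, the median log2 fold change between Nampt+ and Nampt++ was -0.15 for nuclear and 0.22 for mitochondrial members, and Ndufa1 (-1.75) and Ndufaf7 (-1.42) were past the study's thresholds. In that fit 4 of 88 nuclear members were lower at an unadjusted p under 0.05, against 8.26% of all genes, so the members' share was no higher than that of all genes. Ndufa2 (-0.33) and Ndufb6 (-0.30) no longer passed an unadjusted p of 0.05 in that fit. Against controls the remaining Nampt++ libraries had medians of 0.09 and -0.41, and the remaining Nampt+ libraries -0.06 and -0.21.

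Members differed in how steady they were over the 11 libraries. The SD of log2(TMM CPM + 1) had a median of 0.20 over the 76 nuclear members with a mean of at least 10 FPKM, against 0.30 over all 4930 such genes, and of 0.33 over the mitochondrial members. Ndufv1, which binds NADH (SD 0.098), Sdha (0.11) and Atp5po (0.12) were the steadiest, and Ndufa1 (0.87), Ndufaf7 (0.78), Atp5if1 (0.62), Uqcr10 (0.43) and Ndufa12 (0.41) the least steady.

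Other mitochondrial genes were read from lists beside the members. Of 12 citric acid cycle genes, 0 were called or passed an unadjusted p of 0.05 by edgeR in any of the 3 comparisons, with medians of -0.05, 0.02 and -0.02 in the order used above. Of 72 mitochondrial ribosomal proteins, 0 were called, 1 was higher at Nampt++ status than in controls at an unadjusted p under 0.05, and the medians were -0.09, 0.07 and -0.03. Of 40 assembly factors and partners of the chain outside the members, 0 were called and 1 was lower at Nampt+ than at Nampt++ status at an unadjusted p under 0.05, with medians of 0.03, -0.07 and 0.00. Of 25 carriers and markers of mitochondrial mass 0 were called and 1 was lower at Nampt+ than at Nampt++ status at that p. Among genes of mitochondrial gene expression, 0 of 30 were called and 1 was higher at an unadjusted p under 0.05 between the statuses, where the median was 0.08, and Mterf2 was called lower at Nampt++ status than in controls (log2 fold change -1.15, unadjusted p = 0.0215 and adjusted p = 0.99992 by edgeR), with a median of -0.15 over 31 genes.

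Of 13 nuclear regulators of respiratory genes that were tested, 0 were called, and 1 was lower at Nampt++ status than in controls at an unadjusted p under 0.05 by edgeR. Tfam, which packages and transcribes mitochondrial DNA, ranged from 11.9 to 34.3 FPKM, Nrf1 from 4.31 to 12.6 FPKM, Gabpa from 3.75 to 10.96 FPKM and Esrra from 8.78 to 43.4 FPKM. Between Nampt+ and Nampt++ their log2 fold changes were 0.11 (SE 0.15), -0.05 (SE 0.13), -0.12 (SE 0.13) and -0.56 (SE 0.52). The coactivator Ppargc1a was above 0 in only 1 library, at 0.0653 FPKM, and its relative Ppargc1b was at 0.104 to 0.514 FPKM.

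Marker genes of blood cell types also differed in level between the groups, mostly without passing the test, and their part in the values of the members was not tested. At an unadjusted p under 0.05 by edgeR, 0 erythroid, neutrophil, monocyte or B cell genes passed in any comparison, and 1 T cell gene was higher at Nampt+ than at Nampt++ status. Between Nampt+ and Nampt++ the median log2 fold change was 0.70 over 18 erythroid genes, -0.28 over 15 neutrophil genes, -0.32 over 11 monocyte genes, 0.17 over 13 T cell genes and 0.24 over 11 B cell genes. Between Nampt++ and controls it was -0.40, 0.55, 0.30, -0.17 and -0.43 in the same order, and -0.89 over 10 NK cell genes. Summed neutrophil markers ranged from 2182 to 14435 FPKM in controls, 3036 to 40577 FPKM at Nampt++ status and 3855 to 15841 FPKM at Nampt+ status, and summed erythroid markers were never below 93078 FPKM. Of these markers, 3 of 7 basophil and mast cell genes (Ms4a2, Mcpt8l2 and Mcpt8l3) were called higher at Nampt+ than at Nampt++ status. Mcpt8l2 and the platelet gene Ppbp were called lower at Nampt++ status than in controls and the NK cell gene Gzma lower at Nampt+ status than in controls. The ribosomal proteins Rpl30 and Rpl9, of 85 cytosolic ones tested, were called lower at Nampt+ status than in controls, and Rpl30 also at Nampt++ status. The median over these 85 was -0.09 between Nampt+ and Nampt++, -0.03 between Nampt++ and controls and -0.10 between Nampt+ and controls.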

How the data were processed

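RNA-seq of WBC samples was analysed in 11 libraries. Per the labels, cutadapt 1.9, HISAT2 2.0.4 and StringTie 1.3.4 were used by the authors; genome build and read counter are not given in the sources used here. The authors deposited 1 table with raw counts and FPKM per gene, in which an FPKM of 0.0001 stands for 0. Counts were tested in each pair of groups with edgeR 4.0.16 (quasi-likelihood test, TMM, Benjamini-Hochberg adjustment, R 4.3.3) for genes averaging at least 1 FPKM, and the method was tested on simulated data. DESeq2 1.42.0, limma 3.58.1 on log2(FPKM + 1), other scalings and filters, and leaving out libraries were alternatives. Complex means used log2(FPKM + 1). TMM CPM was computed from the counts.

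Members and lists were chosen with earlier results of these data known. The genes named were Atp5me, all mitochondrial members, members past the study's thresholds, the 3 highest and 3 lowest fold changes and the smallest p of each complex among members with a mean FPKM of at least 10, the highest and lowest level of each complex, tissue isoforms, list genes past the thresholds and 6 regulators. Ndufb7 and the members without overlap by TMM CPM, in the rats or between the groups, were named after their values were seen. Nampt++ and Nampt+ libraries of a number come from the same rat per the labels; the correlations of their deviations were -0.27, -0.24, 0.23 and 0.09 in rats 1 to 4, and no pair of libraries was identical. Controls share only numbers. All 3 comparisons share groups.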

Additional observations from a re-analysis of the deposited data

Results flagged for a closer look

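Of 128 groups of 4 libraries checked for a library far from the other 3, 14 held such a value. Chance gives about 1 in 20 for separate groups. These groups share libraries and include means over the same genes, so the 14 cannot be set against that rate. In 11 of the 14 the library was the Nampt+ library of rat 2, which held the largest haemoglobin share. The part of that share was not tested. By FPKM it was low for Atp5mc3 (35.4, others 77.3 to 84.0), Uqcr11 (50.3, others 70.5 to 74.3), Sdhd (26.6, others 47.1 to 50.6) and a Uqcrb row (5.20, others 9.01 to 9.48), and high for Atp5md (8.99, others 4.84 to 5.37). Its means of log2(FPKM + 1) were low at 4.81 over all nuclear members, 4.40 for complex I, 4.59 for complex II, 4.81 for complex III and 5.71 for complex V, and at 10.51 over the mitochondrial members. The Nampt++ library of rat 4 was high for Atp5mc2 (311 FPKM, others 221 to 235) and Cox7c (88.9 FPKM, others 61.2 to 63.6), and that of rat 1 for Uqcr10 (43.0 FPKM, others 13.4 to 18.3).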

How the results depend on the processing

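Between Nampt+ and Nampt++, 6 members passed an unadjusted p of 0.05 by DESeq2, all lower (all genes: 1.54% lower). By limma 1 (Ndufa1) passed with either pseudocount, also lower (all genes: 0.677% lower with pseudocount 1 and 0.553% with 0.1). With rats 2 and 4 left out, an alternative chosen after seeing the data, 2 were called. In that fit 4 of 88 nuclear members and 8.26% of all genes were lower at an unadjusted p under 0.05. The causes were not tested. With the rat as a block, as the pairing in the labels allows, 2 members passed (Ndufa2, unadjusted p = 0.0476, and Ndufb6, unadjusted p = 0.0454 by edgeR). Both were lower (all genes: 0.526% lower), and the nuclear and mitochondrial medians were -0.13 and 0.19. Against controls the block joined libraries that share only a number and not a rat. It changed no call there, which says nothing about pairing. Between Nampt++ and controls, 1 member was called and passed p without a filter on FPKM (a Ndufa10l1 row). Between Nampt+ and controls, 1 (Ndufa1) passed by limma, and 1 was called and passed with rats 2 and 4 left out. Leaving out each library in turn gave 0 to 1 members called in each comparison, and 2 to 17, 0 to 4 and 0 to 1 past p in the order of the report; the 17 came without rat 2 at Nampt+ status, and the 4, of 87 nuclear members, without control 2 (Ndufaf7 called), where 5.68% of all genes were higher. Over the other alternatives, except with rats 2 and 4 left out, the nuclear median minus that of all genes stayed at -0.14 to -0.08, 0.06 to 0.15 and -0.02 to 0.03, the mitochondrial at 0.16 to 0.22, -0.33 to -0.16 and -0.06 to 0.02; with those rats left out they were -0.17, 0.13 and -0.03, and 0.20, -0.37 and -0.18. In these ranges the ends 0.15 and -0.33 (Nampt++ and controls) and 0.03 and 0.02 (Nampt+ and controls) came from that block by number. No scaling moved the median of all genes by over 0.1.

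Single genes changed sign as follows. By limma, Mt-nd5 was 0.022 between Nampt++ and controls and Atp5if1 -0.0492 or -0.0496 (pseudocount 1 or 0.1) between Nampt+ and controls. With rats 2 and 4 left out, Mt-nd6 was 0.35 and Ndufc1 -0.13 between the statuses, and Atp5me -0.039, Ndufaf7 -0.60, Atp5if1 -0.15, Atp5mf -0.19 and Mt-nd1 -0.10 between Nampt+ and controls. With single libraries left out, Atp5me ran from -0.20 to 0.0038, Ndufa12 from -0.086 to 0.45, Atp5if1 from -0.23 to 0.57, Mt-nd6 from -0.20 to 0.12, Ndufc1 from -0.091 to 0.22 and Uqcr10 from -0.61 to 0.046 between the statuses. Between Nampt++ and controls Mt-nd5 ran from -0.16 to 0.23 and Ndufa1 from -0.35 to 0.20, and between Nampt+ and controls Atp5me from -0.048 to 0.16, Ndufaf7 from -0.032 to 1.21, Atp5if1 from -0.30 to 0.49, Atp5mf from -0.13 to 0.33 and Mt-nd1 from -0.071 to 0.21. Groups of 3 and 4 limit all of these values.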
